A study of Mus musculus with 4 samples.

Results

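The RNA of splenic CD8 T cells after allogeneic transplant was compared with that of CD8 T cells on the day of transplant. The comparison used the 2 CD8 libraries among 4 libraries in the series, chosen by their labelled cell type and time point, and covered 9933 of 21705 listed genes, those whose deposited value averaged 73.3 or more over the 4 libraries. All 4 libraries carry the strain label C57bl/6. Each was made by mRNA sequencing from a pool of 5 taken before the flow sort for CD4 or CD8. The library at transplant carries the word Donor in its title. The later library holds splenic T cells recovered after they were given at an allogeneic bone marrow transplant, on day 14 by its characteristics and day 12 by its title. The strain of the recipients, their conditioning and any marker that separates donor from host T cells are not given in the sources used here. Both CD4 libraries, from the same time points, serve as the only comparison.

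Naive CD8 T cells recirculate through spleen and lymph nodes under the control of homing receptors such as CCR7 and the lipid receptor S1PR1. When their receptor meets foreign peptide and histocompatibility molecules, they divide, change their metabolism and become killer cells that release perforin, granzymes and interferon gamma. In an allogeneic transplant the recipient's tissues supply such antigen, and under long exposure T cells also raise inhibitory receptors such as PD-1, LAG-3 and TIM-3.

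Each group was 1 library, so no difference had a replicate check and none was tested. Depth was 17972480 estimated reads in the CD8 library at transplant and 9873850 in the one after it, the shallowest of the series. Ratios are on the log2 scale after 14.7, or 1 ppm of the mean library total, was added to each deposited value. Higher and lower mean at least 2-fold on that scale. Plain ratios carry a 95% exact interval on the estimated reads, which covers counting error only. Levels are not compared between genes, since the files give no gene lengths, and in bulk RNA fewer cells of a type and less RNA per cell cannot be told apart.

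The coreceptor genes went with the sort. Cd8a, the alpha chain of the CD8 coreceptor, went from 21107 to 17999, a log2 ratio of -0.23, and Cd8b1, the beta chain, went from 22739 to 10139.6 and was 2.24-fold lower (95% interval 2.19 to 2.30). Cd4 stood at 66.1 and 94.5, against 15134 and 17092 in the CD4 libraries. The source label names innate lymphoid cells. Of 16 listed genes of NK and innate lymphoid cells 11 passed the filter, 4 higher and 2 lower (median 0.76). Over all genes tested 15.0% were higher and 11.0% lower. Ncr1, a defining receptor of NK cells, stood at 9.91 and 2.82 and did not pass, Klrb1c, the gene of NK1.1, went from 69.4 to 175, Fcer1g, a signalling chain, from 42.9 to 212, and Kit, a growth factor receptor, from 51.2 to 272. Several genes of that list, such as Eomes, Id2 and Il7r, are also expressed by T cells. Xist, of the inactive X chromosome, was at 0 in both, and the Y-linked Ddx3y stood at 2158 and 1437.

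Most measured genes of neutrophils, macrophages and red cells were higher in the later CD8 library, and their part in the results below was not tested. Of 15 neutrophil genes listed, 14 passed the filter and 11 were higher, and their summed value went from 3903 to 30173. Over all genes 15.0% were higher and 11.0% lower. S100a9, a calcium-binding protein of neutrophils, went from 1265 to 9220.0, Ltf, the granule protein lactoferrin, from 392 to 3189, and Ngp, another granule protein, from 573 to 6212. Of 20 macrophage and monocyte genes 14 passed and 12 were higher, with a sum that went from 1409.6 to 6175. Lyz2, the lysozyme of myeloid cells, supplied the most, from 671 to 2464, and Cd14 and Marco were at 0 at transplant. That sum includes Ccr2, from 348 to 2031, which is also counted among the chemokine receptors below. The sum of the 15 red cell and platelet genes found, of 19 listed, went from 384 to 4443, and Hba-a2, a globin chain, went from 85.1 to 1347. The platelet gene Pf4 stood at 1.65 and 0. None of the 10 genes of mast cells, basophils and eosinophils passed the filter, and 2 of 14 stromal and endothelial genes did, both within 2-fold. Of 15 B cell genes 4 passed and 3 were lower, and their sum went from 1627 to 433. Cd72 went from 865 to 134, Pou2af1, a B cell coactivator, from 315 to 48.0, and Cd79b, a chain of the B cell receptor, from 309 to 52.2, while Pax5, the lineage factor of B cells, was at 0 in both. In the CD4 pair the median log2 ratio of the macrophage genes was -1.85, against 1.76 in CD8, and that of the neutrophil genes 0.76, against 2.92.

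**Figure D1:**
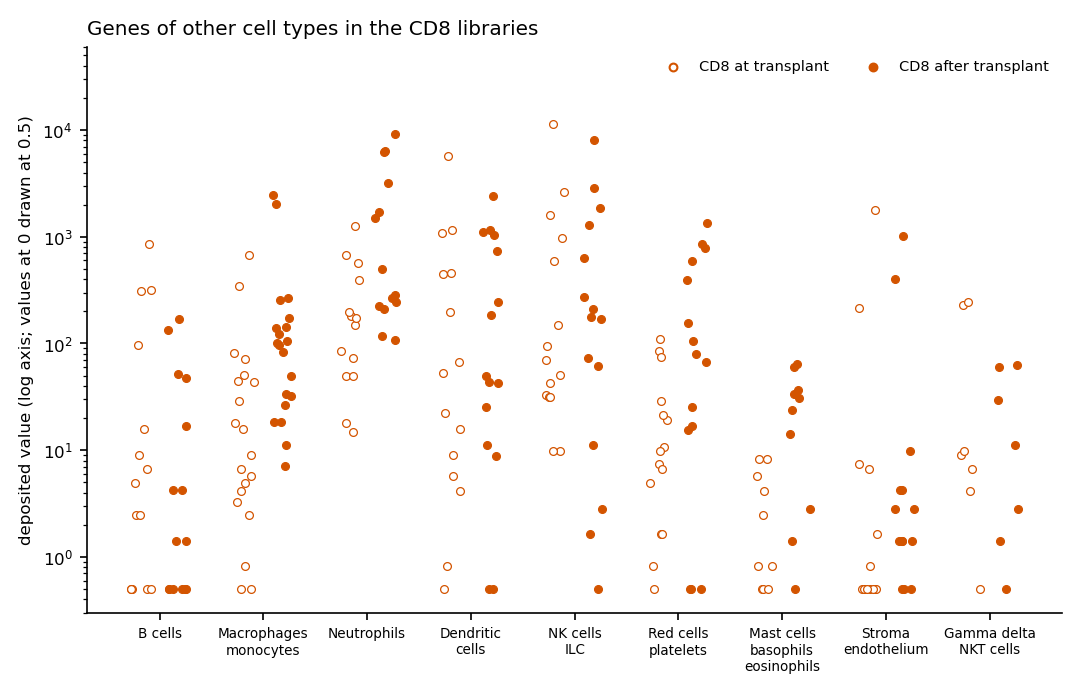
Deposited values (log axis) of the listed genes of other cell types in the CD8 library at transplant (open points) and after it (filled points), 1 point per gene, with values at 0 drawn at 0.5. Most filled points of neutrophils, macrophages and red cells sit above the open ones, with Lyz2 going from 671 to 2464, while most stromal genes lie at or near 0 in both.

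Of the 9933 genes, 1490 were at least 2-fold higher after transplant (15.0%) and 1095 at least 2-fold lower (11.0%). The median gene had a log2 ratio of 0.02, and 5321 genes lay within 1.5-fold. Differences of 16-fold or more were found for 158 higher and 28 lower genes. Of the higher genes 603 were under the filter value at transplant and entered through the other libraries, as did 234 of the lower genes that were under it after transplant. At the filter, Chst14 with a mean of 73.2 was left out and Slc41a3 with 73.3 was kept. At the 2-fold line, Ctsd, a lysosomal protease, fell just short (from 7938 to 15883) and Susd3 just passed (from 172 to 358). Among the lower genes Zfp276 fell just short (from 903 to 444) and Ppm1k just passed (from 531 to 258).

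**Figure D2:**
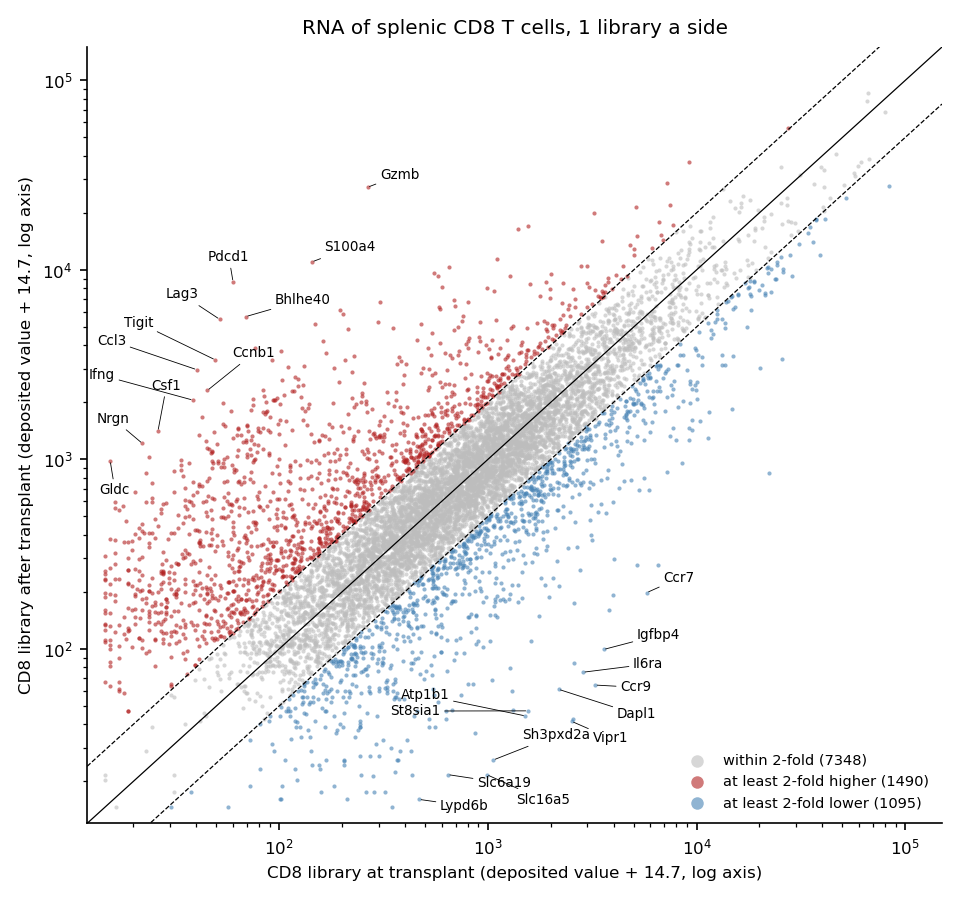
Deposited value plus 14.7 of each of 9933 genes in the CD8 library at transplant (x, log axis) and after it (y, log axis), 1 point per gene, with a solid line at equal values and broken lines at 2-fold. Points above the upper broken line are the 1490 higher genes and those below the lower one the 1095 lower genes, with the 12 largest and 12 lowest ratios named, Pdcd1 farthest up at a log2 ratio of 7.17.

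The 12 largest and the 12 lowest ratios held genes of several kinds. Beside Pdcd1, Lag3, Gzmb and others, the 12 largest ratios of genes averaging 10 ppm or more included 2 genes that are better known outside T cells. Gldc, the glycine decarboxylase of mitochondria, went from 0.826, the value of 1 read, to 969, and was 1173-fold higher (95% interval 209.9 to 46408). In the CD4 pair it went from 0 to 397. Nrgn, the calmodulin-binding protein neurogranin of neurons, went from 7.43 to 1199, and from 37.8 to 924 in CD4. Both genes were low at transplant and higher after it in each cell type. The 12 lowest included Ccr9, Il6ra, Igfbp4, Dapl1 and Ccr7 of the list for naive cells and others outside it. Among the latter, Atp1b1, a subunit of the sodium pump, went from 1499 to 29.6 and was 50.6-fold lower (95% interval 33.0 to 82.0). St8sia1, which makes the ganglioside GD3, went from 1539 to 32.4, and Slc6a19, a transporter of neutral amino acids, from 628 to 7.05. Lypd6b went from 453 to 1.41, the value of 1 read, and was 321-fold lower (95% interval 57.5 to 12720.0). Of 18 called genes with a library at 0, 15 were at 0 at transplant and 3 after it. Tff1, a trefoil peptide of epithelia, went from 0 to 234 and was at least 94.4-fold higher. Penk, the precursor of enkephalins, was at least 88.2-fold higher, and Clgn, a chaperone known from testis, at least 97.9-fold higher. Klra23, a lectin-like receptor, was at least 78.6-fold lower. These 4 genes were singled out after their values were seen.

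Genes of cell division were higher almost throughout. In the list for the G2 and M phases 35 of 36 genes were higher and 0 lower, with a median log2 ratio of 4.36, against 0.02 over all genes tested. The exception was Racgap1, a regulator of the cleavage furrow, at 0.97, just short of 2-fold in CD8 and at 3.08 in CD4. Mki67, the proliferation antigen, went from 536 to 9623, and Top2a, which untangles chromosomes, from 634 to 10371. Kif11, the motor that separates spindle poles, went from 147 to 4175 and was 28.4-fold higher (95% interval 24.4 to 33.2). Ccnb2, a mitotic cyclin, was 43.1-fold higher (95% interval 35.0 to 53.5), and Ube2c, which marks mitotic cyclins for degradation, was 33.3-fold higher (95% interval 26.8 to 42.0). Cdk1, the kinase that mitotic cyclins activate, went from 70.2 to 2142.

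Promoters of genes of this group often hold the CHR element, known as the site of the DREAM and MuvB complexes, and a CCAAT box, known as the site of NF-Y. Promoter windows of 300 bases, 250 before to 50 after the start, were taken from RefSeq on GRCm38.p6, which is not the build mm9 of the deposited values. The element searched for CHR was TTTGAA and that for the CCAAT box CCAAT, both on either strand. Of the 36 genes, 31 had a match and 33 promoters. TTTGAA stood in 78.8% of them, CCAAT in 78.8% and both in 69.7%. Among all 32851 promoters of the table these shares were 17.9%, 37.4% and 6.95%, and among the 10160 promoters of tested genes 12.1%, 37.9% and 4.95%. Both stood in 9.57% of the 1453 promoters of genes higher in CD8 and in 2.48% of the 1131 promoters of genes lower in CD8. Stretches of 150 bases around the start of 4 genes with large ratios are shown because they hold both elements. They were taken by falling ratio from the list. Ccnb1 and Ccna2, at 5.67 and 4.98, were passed over for lack of a matched promoter or of both elements in its stretch. The first 100 bases lie before the start, and capitals mark both elements on either strand.
Ccnb2, chr9:70421505-70421654, minus strand: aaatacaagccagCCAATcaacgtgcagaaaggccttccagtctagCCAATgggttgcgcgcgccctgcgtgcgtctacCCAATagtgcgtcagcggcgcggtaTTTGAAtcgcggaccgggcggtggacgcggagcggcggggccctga
Ube2c, chr2:164769829-164769978, plus strand: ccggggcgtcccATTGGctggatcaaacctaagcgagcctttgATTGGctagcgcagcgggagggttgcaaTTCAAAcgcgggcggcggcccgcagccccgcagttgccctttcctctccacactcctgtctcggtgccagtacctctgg
Kif11, chr19:37376282-37376431, plus strand: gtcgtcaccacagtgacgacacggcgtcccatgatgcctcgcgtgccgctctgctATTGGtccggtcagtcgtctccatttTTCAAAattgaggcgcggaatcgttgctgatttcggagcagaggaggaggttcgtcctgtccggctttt
Cdk1, chr10:69352863-69353012, minus strand: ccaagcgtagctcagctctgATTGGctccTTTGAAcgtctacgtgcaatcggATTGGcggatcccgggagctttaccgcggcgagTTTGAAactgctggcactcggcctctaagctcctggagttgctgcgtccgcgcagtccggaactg

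The stretch of Ccnb2 holds CCAAT 3 times and TTTGAA once, that of Cdk1 holds each 2 times, and those of Ube2c and Kif11 hold TTTGAA once. A match describes the letters in these windows and is not evidence of binding.

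Genes of DNA replication were higher as well. Of 39 measured genes 33 were higher and 0 lower (median 2.22), against 15.0% and 11.0% over all genes. Rrm2, a subunit of ribonucleotide reductase, went from 282 to 5313, Tk1, thymidine kinase, from 69.2 to 1764, and Mcm10, a factor of origin firing, from 38.0 to 893. The subunits of the replicative helicase were moderate, from 1.36 for Mcm2 to 2.32 for Mcm5. Cdt1, which loads that helicase, was at 0.32. The promoters of this list held the E2F letters TTCCCGC or TTCGCGC, on either strand, in 56.4% of 39 cases from 32 matched genes, against 11.5% over promoters of tested genes and 6.00% over all. TTTGAA stood in 12.8% of them. Of 24 genes of homologous recombination and the Fanconi pathway 17 were higher (median 1.997), with Fancd2, a core protein of that pathway, from 39.6 to 618. Atm, the kinase that senses breaks, was the 1 lower gene, from 2967 to 979.

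Most cyclins and their kinases were higher, but none of the 3 cyclins of the D type was. Of 26 cyclins and kinases 19 were higher and 1 lower, against 15.0% and 11.0% over all genes. Ccnd2, a D-type cyclin of G1, went from 10397 to 1574 and was 6.61-fold lower (95% interval 6.21 to 7.03), and Ccnd1 and Ccnd3 had log2 ratios of 0.03 and -0.25. Ccne2, the cyclin of S phase entry, went from 28.3 to 584. Of 20 genes in the list of kinase inhibitors, the Rb family, E2F factors and their partners, 14 were higher and 1 lower (median 2.41). Cdkn2a, the locus of p16 and p19Arf, went from 0 to 296 and was at least 119.5-fold higher, and Cdkn1a, the gene of p21, went from 4.13 to 349.8 and was 84.7-fold higher (95% interval 35.8 to 263). The 1 lower gene was Cdkn1b, the gene of p27, known from resting cells, from 3920.4 to 1643. The E2F genes E2f1, E2f2, E2f7 and E2f8 had log2 ratios of 2.70, 2.81, 4.08 and 4.44, and Foxm1, a factor of mitotic genes, 3.46. Of 21 histone genes 8 passed the filter, 4 of them higher. Replication-dependent histone RNA has no poly(A) tail, on which mRNA kits select, and Hist1 genes are so alike that reads can be split among them. H2afz, a replacement histone outside that class, went from 2964 to 10477.

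**Figure D3:**
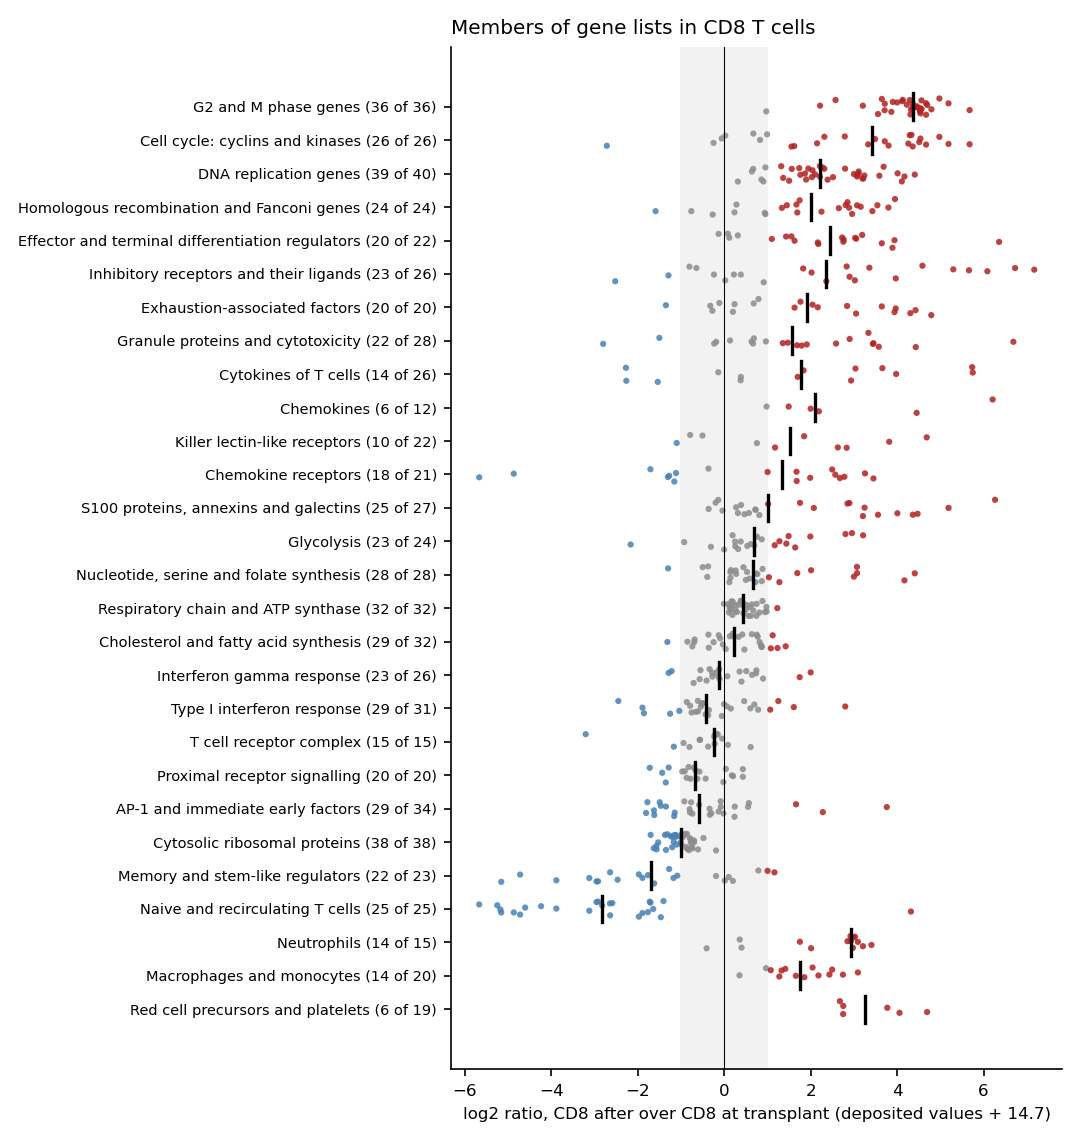
Log2 ratio, CD8 after over CD8 at transplant, of each measured member (points) of 28 gene lists, with the list's median as a black bar, the range within 2-fold shaded, and the measured and listed number of members beside each name. Points are red where at least 2-fold higher, blue where at least 2-fold lower and grey between. The G2 and M phase genes lie around 4.36, the naive genes around -2.82 and the respiratory chain genes around 0.43.

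Most components of the T cell receptor and of its proximal signalling lay within 2-fold, as did 74.0% of all genes. Of 15 genes of the receptor complex and T cell surface 13 lay within 2-fold (median -0.23). Cd3e and Cd3g, chains of CD3, had log2 ratios of -0.15 and -0.17, and Thy1 -0.22. The 2 lower genes were Cd8b1, given above, and Trat1, an adaptor bound to the receptor, from 276 to 16.9, 16.3-fold lower (95% interval 9.21 to 31.9). Among 20 proximal signalling genes 4 were lower, 0 higher and 16 within 2-fold (median -0.68). Txk, a Tec kinase, went from 2501 to 749, Grap2, the adaptor GADS, from 6166 to 2275, and Rasgrp1, which activates Ras, from 5246 to 2049. Lck, the kinase that starts the signal, was at -0.70 and Zap70, the next kinase, at 0.18. Negative regulators went both ways, 6 higher and 3 lower of 20, against 15.0% and 11.0% over all genes. Dgka, a lipid kinase that limits Ras, went from 14976 to 3501, whereas Ubash3b, a phosphatase also called Sts-1, went from 507 to 2394 and Cblb, a ubiquitin ligase, from 2281 to 4661.

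Genes of naive and memory T cells were lower. In the naive list 24 of 25 were lower (median -2.82, and -2.50 in CD4), against 11.0% over all genes. Lef1, a relative of TCF-1, stood at 4811 before and 761 after, 6.32-fold lower (95% interval 5.78 to 6.91). The 1 higher gene of that list was Ly6c1, from 33.2 to 940.5, which is nearly identical to Ly6c2, from 7813 to 4315. The sum of Ly6c1 and Ly6c2 went from 7846 to 5255, a log2 ratio of -0.58. Transcription factors of quiescence in that list were lower. Klf2, which controls S1pr1, went from 7202 to 2111, Foxo1 from 4635 to 1239.8, Foxp1 from 4237 to 694, and Bach2, a repressor of effector genes, from 1596 to 94.8. Of 22 genes of memory and stem-like cells 15 were lower and 2 higher (median -1.69). Tcf7, the gene of TCF-1, which stem-like T cells need, went from 25549 to 3373, and Id3 from 798 to 133. Eomes, Slamf6 and Myb, other genes of that list, had log2 ratios of 0.20, 0.01 and 0.11. Il2rb, a chain of the receptor for interleukins 2 and 15, went from 7724 to 17302.

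Granule genes were mostly higher, each by its own size. Of 28 genes 22 passed, and 13 were higher and 2 lower (median 1.58), against 15.0% and 11.0% over all genes. Gzmb, granzyme B, went from 250.2 to 27271 in CD8 and from 179 to 5026 in CD4. Gzmk, another granule protease, went from 80.9 to 2045 in CD8 and from 29.9 to 835 in CD4, with log2 ratios of 4.43 and 4.25. Gzma, by contrast, went from 461 to 5139.6 in CD8 and from 798 to 353 in CD4, so that its direction differed between the pairs. Prf1, perforin, was 3.24-fold higher (95% interval 3.06 to 3.43) in CD8 and went from 818 to 468 in CD4. Gzmm was lower in CD8, from 362 to 39.5, and Nkg7, a granule membrane protein already abundant at transplant, went from 5817 to 11371, just short of 2-fold. The neighbouring granzymes Gzmd, Gzme, Gzmf, Gzmg and Gzmn, which resemble each other closely, summed to 0 at transplant and 108 after it, with Gzmf alone from 0 to 65.6. They did not pass the filter. Serpinb9, an inhibitor that shields killer cells from granzyme B, went from 567 to 6343, and Stx11 and Rab27a, which move granules to the membrane, from 85.1 to 992 and from 1214 to 4238. Fasl, the ligand of the death receptor Fas, went from 52.9 to 789.8 in CD8 and from 227 to 484 in CD4.

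Cytokines ranged from large increases to decreases. Of 26 listed 14 passed the filter, 8 of them higher and 3 lower (median 1.77), against 15.0% and 11.0% over all genes. Genes that passed only through their later level had to differ. Ifng, interferon gamma, was 85.2-fold higher (95% interval 59.0 to 128), and Csf1, the growth factor of macrophages, went from 11.6 to 1394. Spp1, osteopontin, also known from macrophages, went from 0 to 216 and was at least 87.1-fold higher, and Il10, an inhibitory cytokine, went from 0 to 97.3 and was at least 39.3-fold higher. Il21, known from helper T cells, went from 0.826 to 181 in CD8, from 1 read (219-fold higher (95% interval 38.5 to 8701)), and from 24.6 to 1669 in CD4. Tnf, tumor necrosis factor, was at 129 and 172, a log2 ratio of 0.38. Il2, the growth factor of T cells, was at 1 read at transplant and 0 after it, and Il3, Il5, Il17a and Il22 were at 0 in both, where the floor of 3 reads stands at 2.48 and 4.23. Lymphotoxin genes were lower, Ltb from 10017 to 2076 and Lta from 226 to 35.3. Among chemokines, Ccl3 and Ccl4, inflammatory chemokines, went from 25.6 to 2959 and from 79.3 to 2038, and Ccl5, a related one, from 4779 to 13461. Xcl1, which draws cross-presenting dendritic cells, went from 181 to 371, a log2 ratio of 0.98.

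Chemokine receptors went both ways. Of 18 chemokine and sphingosine receptors that passed, 10 were higher and 7 lower, against 15.0% and 11.0% over all genes. Among the higher ones Ccr1, Ccr6, Ccr8, Ccrl2 and Xcr1 were under the filter value in CD8 at transplant. The median of the list changed sign with a filter at 20 ppm, as given below. Ccr9, the receptor of the small intestine, went from 3252 to 49.8 in CD8 and from 233 to 119 in CD4. S1pr1, which lets cells leave lymphoid tissue, went from 7679 to 2346, and Ccr7 from 5753 to 183. On the other side stood Cxcr6, from 1976 to 7891, Ccr2, from 348 to 2031, and Cx3cr1, from 168 to 1068, all receptors of inflamed tissue. Ccr2 and Cx3cr1 are also known from monocytes, whose listed genes were higher in the same library. In the CD4 pair Ccr2 and Cx3cr1 had log2 ratios of 2.46 and 1.70, and the macrophage and monocyte list, which includes Ccr2, a median of -1.85. The part of monocytes in the CD8 ratios of Ccr2 and Cx3cr1 was not tested. Cxcr3, the receptor for interferon-induced chemokines, went from 1116 to 2252 and lay at the 2-fold line. Ccr6 went from 1.65 to 164 from 2 reads, 99.0-fold higher (95% interval 26.8 to 828). Among adhesion genes Itgae, the integrin CD103 that binds epithelial E-cadherin, went from 2581 to 161 and was 16.1-fold lower (95% interval 13.3 to 19.5), while in CD4 it went from 56.4 to 92.9. Itga1, the collagen-binding CD49a, went from 19.7 to 301, Itgb1 from 2777 to 10482, Itga4 from 8636 to 16049 and Itgb7, the partner of both CD103 and the gut integrin, from 10442 to 6667. Gcnt1 and Fut7, enzymes that build selectin ligands, went from 23.1 to 584 and from 20.6 to 185, and St6gal1, a sialyltransferase, from 3078 to 467.

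Inhibitory receptors included the largest ratio among genes averaging 10 ppm or more. Of 23 that passed 14 were higher and 2 lower (median 2.36), against 11 higher and 3 lower in CD4 (median 0.46). Over all genes the shares in CD8 were 15.0% higher and 11.0% lower. Several of the higher genes, such as Lag3, Tigit and Ctla4, were under the filter value in CD8 at transplant. Genes that passed only through their later level had to differ. Pdcd1, the gene of PD-1, stood at 45.4 and 8630.5 in CD8 and went from 248 to 6000.4 in CD4, and Lag3 from 37.2 to 5471 and from 119.5 to 3211. Both were thus lower in CD8 than in CD4 at transplant and higher in CD8 after it. Havcr2, the gene of TIM-3, went from 61.9 to 3858, Tigit from 34.7 to 3337, and Ctla4, which binds the ligands of CD28, from 28.1 to 1666. Entpd1, the ectoenzyme CD39, went from 57.8 to 1118, while Nt5e, the enzyme CD73 that acts after it, went from 1435 to 238. Btla, Cd96 and Lair1, other receptors of this list, had log2 ratios of 0.22, -0.64 and 0.02, and Cd274, the ligand PD-L1, -0.24. The protein tail motifs of these receptors were not analysed here.

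Some costimulatory receptors were higher, and 1 was lower. Of 11 genes of the TNF receptor family 3 were higher and 1 lower (median -0.22), and of 14 of the CD28 and SLAM families 6 and 0 (median 0.83). Over all genes the shares were 15.0% higher and 11.0% lower. Tnfrsf9, the gene of 4-1BB, went from 192 to 3348, Tnfrsf4, the gene of OX40, from 42.1 to 650.2, and Icos from 645 to 3533. Tnfrsf18, the gene of GITR, had a log2 ratio of 0.67, and Tnfrsf26, the 1 lower gene, went from 1299.9 to 283. Cd27 and Cd28, already expressed by resting cells, had log2 ratios of -0.22 and 0.61. Cd80, a CD28 ligand known from antigen-presenting cells, went from 5.78 to 654. Of 22 killer lectin-like receptors 10 passed, 6 higher and 1 lower. Klrc1, the gene of NKG2A, went from 335 to 4912, and Klrk1, the gene of the activating NKG2D, from 476 to 3017, and from 429 to 312 in CD4. Klrg1, of terminal effector cells, went from 60.3 to 519. The 7 listed Klra genes, near-identical Ly49 receptors, summed to 456 at transplant and 155 after it.

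**Figure D4:**
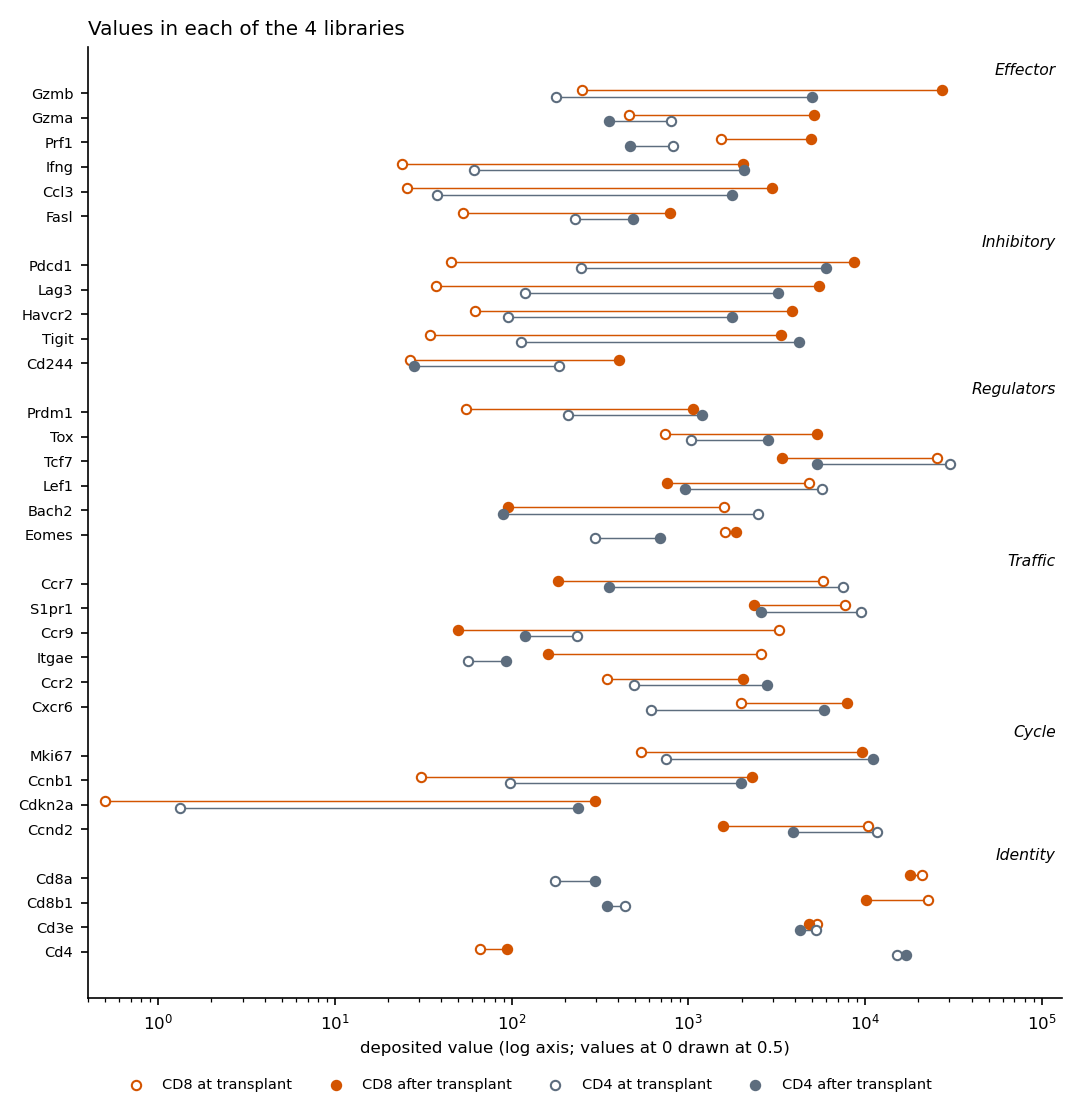
Deposited values (log axis) of 31 genes in the 4 libraries, with CD8 in orange and CD4 in grey, open points at transplant and filled points after it, joined per cell type, and a value of 0 drawn at 0.5. In CD8, Gzmb went from 250.2 to 27271 and Ccr7 from 5753 to 183, while Gzma and Cd244 moved in opposite directions in the CD8 and CD4 pairs.

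Transcription factors of effector T cells were higher. Of 20 that passed 16 were higher and 0 lower (median 2.45), against 15.0% and 11.0% over all genes. Some of them, such as Prdm1 and Bhlhe40, were under the filter value in CD8 at transplant, and genes that passed only through their later level had to differ. Prdm1, the gene of Blimp-1, went from 55.3 to 1058, Bhlhe40, a repressor induced in activated cells, from 54.5 to 5654, Id2, an inhibitor of E proteins, from 970.4 to 8025, and Tbx21, the gene of T-bet, from 790.4 to 2351. Batf and Irf4, partners at effector genes, had log2 ratios of 2.16 and 2.76. Runx3, of the CD8 lineage, was at -0.13 and Stat4, which carries interleukin-12 signals, at 0.08. Zbtb7b, the gene of ThPOK, the lineage factor of CD4 cells, went from 99.1 to 566 in CD8 and from 4802 to 2223 in CD4. Among factors tied to exhaustion, Tox went from 736 to 5368, Tox2 from 1.65, or 2 reads, to 307 (186-fold higher (95% interval 50.9 to 1547)), and Nr4a2, an orphan nuclear receptor, from 45.4 to 1275. The related Nr4a1 and Nr4a3, which respond within hours to receptor signals, were at -0.11 and -0.32. The immediate early list as a whole had 9 lower and 3 higher of 29 (median -0.58), against 11.0% and 15.0% over all genes. In that list Jun went from 917 to 289 and Btg1, an inhibitor of division, from 17348 to 4952. Dusp4 and Dusp5, phosphatases of the ERK pathway, went from 15.7 to 396 and from 129.7 to 687.

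Cytokine receptors went both ways. Of 11 genes of the common gamma chain family 3 were higher and 3 lower, and of 23 others 9 and 10. Over all genes the shares were 15.0% higher and 11.0% lower. Il2ra, the chain that gives high affinity for interleukin-2, went from 32.2 to 1063, and Il7r, of naive and memory survival, from 11305 to 1289. Il18r1 and Il18rap, the interleukin-18 receptor, went from 2000.3 to 9487 and from 519 to 3532, Il12rb1 and Il12rb2, that of interleukin-12, from 209.8 to 1231 and from 30.6 to 750.4, and Il1rl1, the interleukin-33 receptor, from 9.08 to 1008. Lower were Il6ra and Il6st, which sense interleukin-6, from 2842 to 60.6 and from 3678 to 508, and Tgfbr2 and Tgfbr3 of the TGF-beta pathway, from 6392 to 2571 and from 440.2 to 32.4. Ifngr2, a chain of the interferon gamma receptor, went from 559 to 38.1, while the other chain, Ifngr1, went from 4394 to 7214. Of 20 JAK, STAT and SOCS genes 2 were higher and 3 lower, and 15 lay within 2-fold, a share near the 74.0% of all genes.

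Most genes of the interferon responses lay within 2-fold, as did 74.0% of all genes. Of 29 genes of the type I response 4 were higher and 5 lower (median -0.43), and of 23 genes of the interferon gamma response 2 and 2 (median -0.12), against 15.0% higher and 11.0% lower over all genes. Ifitm3, a membrane restriction factor, went from 38.6 to 356 and Mx1, an antiviral GTPase, from 306 to 750.3, but Ifit1 went from 531 to 215, Usp18, which dampens the response, from 473 to 117, and Oas2 from 411 to 63.5. Irf1, a factor of both responses, had a log2 ratio of -0.27. The promoters of the type I list held the letters of the ISRE, the site of interferon-activated factors, on either strand in 58.3% of 24 cases from 21 matched genes, against 3.23% over promoters of tested genes.

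Genes of cell death were mixed. Of 27 Bcl2 and caspase genes 10 were higher and 2 lower, against 15.0% and 11.0% over all genes. Casp1 and Casp4, inflammatory caspases also known from myeloid cells, went from 68.5 to 1119.9 and from 13.2 to 567, and Bcl2, the survival factor of naive and memory cells, from 4757 to 2103. The near-identical survival genes Bcl2a1a, Bcl2a1b and Bcl2a1d summed to 328 and 3782, a log2 ratio of 3.47. Bcl2l11, the gene of BIM, was just short of 2-fold, from 1384 to 2702, and Bbc3, the gene of PUMA, went from 550.0 to 172 in CD8 and from 367 to 444 in CD4.

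Genes of glycolysis were higher in part, and those of respiration showed small ratios of the same sign. Of 23 glycolytic genes 9 were higher and 1 lower (median 0.69), against 15.0% and 11.0% over all genes. Hk2, the inducible hexokinase, went from 52.9 to 611, Tpi1 from 701 to 4989, Gapdh from 7229 to 28795, Ldha, which makes lactate, from 6766 to 15229.9, and Slc16a3, a lactate exporter, from 45.4 to 451. Pdk1, a kinase that limits the use of pyruvate in mitochondria, was the 1 lower gene, from 3460.4 to 762. In the respiratory chain 1 of 32 genes passed 2-fold, Cox5a from 1109 to 2619, yet 31 had a log2 ratio above 0 (median 0.43). A scaling that lowers all ratios by 0.12, the largest shift of the scalings tried, takes Cox4i1 and Ndufa5, at 0.11 and 0.09, below 0. Cholesterol genes had a median of 0.22 in CD8 and -0.41 in CD4. Sqle, an early enzyme of sterol synthesis, went from 216 to 488 in CD8 and from 606 to 463 in CD4. Abca1, which exports cholesterol, went from 619 to 62.1, Fabp5, a fatty acid carrier, from 41.3 to 589.6, and Cpt1a, which admits fatty acids to mitochondria, from 1128 to 2663. Of 28 genes of nucleotide, serine and folate synthesis 9 were higher and 1 lower, with Psat1 from 586 to 2405 and Mthfd2 from 535 to 1317. Slc7a5, an amino acid transporter, went from 916 to 2016, and Tfrc, which takes up iron, from 1007 to 2789.8.

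Ribosomal protein genes and some heat shock genes were lower. All 38 ribosomal protein genes had log2 ratios below 0 on the deposited scale (median -0.998, and -0.90 in CD4), 19 of them past 2-fold, from -0.19 for Rps2 to -1.70 for Rps24. With library totals set equal, all ratios rise by 0.09, which leaves the sign of each of these below 0. Of 25 genes of the heat shock and unfolded protein responses 7 were lower and 2 higher (median 0.13). Over all genes 11.0% were lower and 15.0% higher. The near-identical Hspa1a and Hspa1b, inducible chaperones, summed to 1649 at transplant and 40.6 after it, and Hsph1, their exchange factor, went from 9537 to 1420.3 and Dnaja1, a cochaperone, from 9294 to 2586. The 2 higher genes were Pdia3 and Sdf2l1, of the endoplasmic reticulum, from 6088 to 12962 and from 222 to 770.1, while Hspa5, the gene of BiP, had a log2 ratio of 0.58. Hspa1a and Hspa1b summed to 3001 and 81.3 in the CD4 pair. The handling of cells before lysis, which can move such genes, is not given in the sources used here.

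Genes of S100 proteins, annexins, galectins and a few others listed with them were in part higher. Of 25 in that list 13 were higher and 0 lower (median 1.02), and of 25 cytoskeletal genes 6 and 0 (median 0.24). Over all genes the shares were 15.0% higher and 11.0% lower. S100a4 went from 129 to 11007 in CD8 and from 608 to 10067 in CD4, S100a6 from 291 to 6759, Lgals1, galectin 1, from 1379 to 16381, Lgals3, galectin 3, from 87.5 to 3708, and Anxa2, annexin 2, from 561 to 9223. S100a4, S100a6, Lgals3 and the intermediate filament gene Vim, from 5093 to 21474, are also known from myeloid cells, whose markers were higher in the same library. In the CD4 pair these 4 genes had log2 ratios of 4.02, 3.23, 3.33 and 1.86. The medians of the macrophage and neutrophil lists there were -1.85 and 0.76. The part of myeloid cells in these ratios was not tested. Stmn1, which destabilizes microtubules in dividing cells, went from 443 to 4229.9, and Actg1, an actin, from 27290.3 to 56025. Abundant genes within 1.1-fold included Coro1a, an actin regulator, from 31303 to 31708, Ikzf1, the gene of Ikaros, from 12158 to 13269, Cd52, from 10342 to 11128, and Npm1, a nucleolar protein, from 10722 to 11458.

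Of 24 genes of DNA methylation, Polycomb and other chromatin enzymes 4 were higher, 6 lower and 14 within 2-fold (median -0.09). Over all genes the shares were 15.0%, 11.0% and 74.0%, so the share of higher genes was near that of all genes. Ezh2, the methyltransferase of Polycomb, went from 466 to 2841, and Uhrf1, which copies DNA methylation, from 370.0 to 3296, while Tet1 and Tet3, which oxidize methylcytosine, went from 366 to 14.1 and from 2777 to 719. Kdm6b, a demethylase that opposes Ezh2, went from 1879 to 316, and Mll1, a methyltransferase of another histone site, from 7631 to 2164. Among surface receptors Gpr56 went from 8.26 to 834 in CD8 and from 59.8 to 139 in CD4, and Vipr1, the receptor for vasoactive intestinal peptide, from 2505 to 26.8. Ahr, the aryl hydrocarbon receptor in the title of the series, stood at 37.2 and 103, and was 2.77-fold higher (95% interval 1.89 to 4.11). Its target Cyp1a1 stood at 0.826 and 5.64, that is 1 and 4 reads, Cyp1b1 was at 0 in both, and Tiparp, another target, went from 430.4 to 289.6. Hif1a, of the hypoxia response, went from 1884 to 8574, and Epas1, its relative, from 46.2 to 876.

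The CD8 pair and the CD4 pair, which share no library, showed much the same list of genes. In CD4 1204 genes were higher (12.1%) and 1077 lower (10.8%). Genes higher in both numbered 1040, which is 69.8% of the genes higher in CD8 and 86.4% of those higher in CD4, and genes lower in both 784, or 71.6% and 72.8%. Across the 9933 genes the log2 ratios had a Pearson r of 0.89, a description in which all genes share the same 4 libraries. The log2 ratio was at least 1 higher in CD8 than in CD4 for 399 genes (4.02%) and at least 1 lower for 201 (2.02%). Without replicates the differences between the pairs were not tested. Cd244, the SLAM family receptor 2B4, went from 26.4 to 406 in CD8 and from 185 to 28.1 in CD4. Adamts14, a procollagen protease, went from 63.6 to 1080.4 and from 234 to 108, and Myo10, an unconventional myosin, from 10.7 to 66.3 and from 653 to 43.8. St8sia6, a sialyltransferase, was near the floor in CD8, from 15.7 to 0, and went from 1220.5 to 6.14 in CD4. The largest differences the other way included Gcg, the proglucagon gene, with log2 ratios of 0.47 in CD8, from 0 reads, and 5.54 in CD4, Itgae and Ccr9 as above, Slc6a19, from 12.6 to 0.877 in CD4, and Eng, endoglin, from 676 to 72.4 and from 53.9 to 51.7. Ccr9 and Itgae started at 3252 and 2581 in CD8 and at 233 and 56.4 in CD4, and the CD8 and CD4 libraries lay closer together after transplant than at it for both genes.

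**Figure D5:**
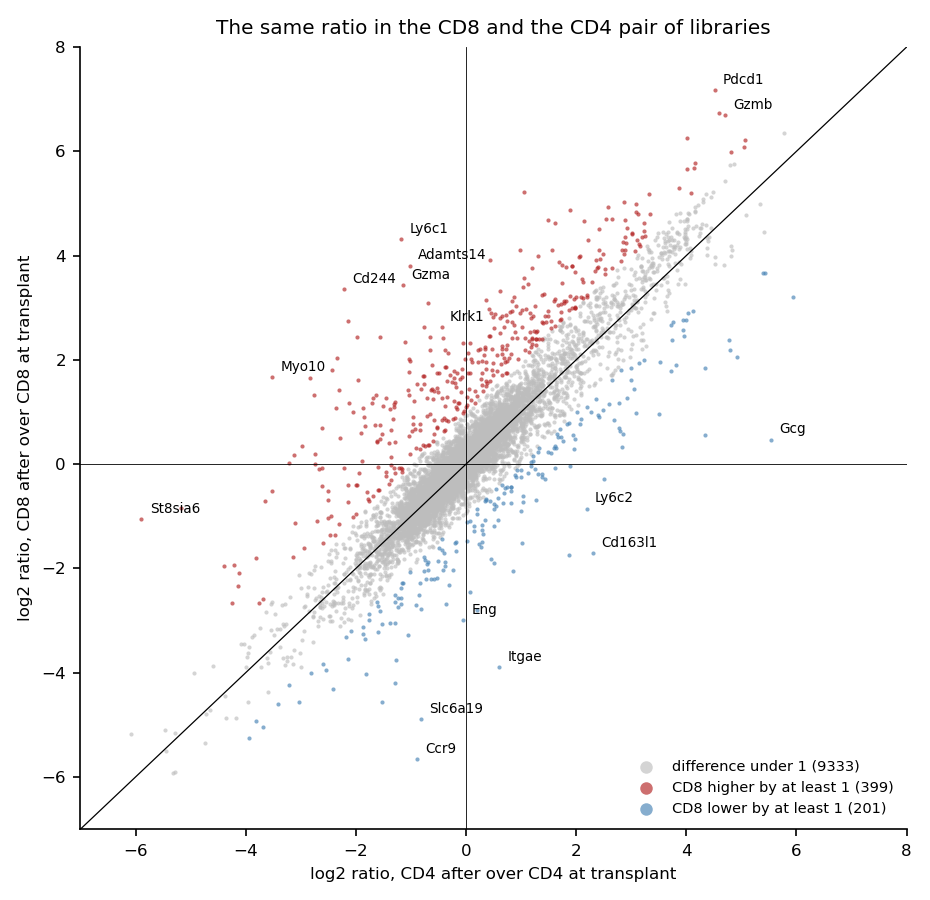
Log2 ratio after over at transplant in the CD4 pair (x) and the CD8 pair (y), 1 point per gene for 9933 genes, with a line at equal ratios. Red points (399) have a CD8 ratio higher by at least 1 and blue points (201) one lower by at least 1. Most genes lie near the line, while Cd244 sits at -2.22 and 3.36, and Itgae at 0.60 and -3.89.

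Genes called in opposite directions were few. Of genes higher in CD8, 32 were lower in CD4. Of genes lower in CD8, 3 were higher in CD4, namely Cd163l1, 5830411N06Rik and Ms4a4c. Cd163l1, known from gamma delta T cells, went from 231 to 60.6 in CD8, and 5830411N06Rik from 245 to 63.5. Cd163l1 and 5830411N06Rik were the 2 genes that passed the filter among 10 listed for gamma delta and NKT cells. The 32 include the complement genes C1qa, C1qb and C1qc, the class II genes H2-Aa, H2-Ab1, H2-Eb1 and Cd74, and Mrc1, Vcam1 and Slc40a1, which are known from macrophages and other antigen-presenting cells. C1qb went from 6.61 to 100.1 in CD8 and from 362 to 112 in CD4, and Cd74 from 1086 to 2430.2 and from 4775 to 1910.1. At transplant C1qb was thus higher in the CD4 library than in the CD8 library. Foxp3, the factor of regulatory T cells, also belongs here, from 20.8 to 74.1 in CD8 and from 305 to 141 in CD4.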

How the data were processed

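RNA-seq libraries of C57bl/6 splenic T cells, 4 in all, covered CD4 and CD8 cells at and after transplant, and the labels alone set the groups. The comparison, the members and the gene lists were chosen with earlier results of these data known, so counts over lists describe these libraries. The authors deposited a signal per gene, namely estimated reads scaled so that the upper quartile of genes above 0 is about 1000 in each library. RSEM 1.1.13, SAMtools 1.2 and build mm9 appear in the submitters' processing notes. Aligner, annotation, strand setting and the step of scaling are not given in the sources used here. Values were multiples of the value of 1 read, 0.826 and 1.41 in the CD8 libraries, and 87.3 and 87.6% of genes above 0 were within 0.1 of a whole read, so they are estimates and no count model was used. Reads from antisense or near-identical genes may be split. Depth was 17972480 and 9873850 estimated reads, 13726 and 14050 genes were above 0, and a floor of 3 reads stood at 2.48 and 4.23. The deposited table has 2 further columns with no header and no values.

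Log2 ratios were taken after adding 14.7 (1 ppm of the mean library total), over genes with a mean of the 4 libraries of at least 5 ppm (73.3). Called means at least 2-fold, and no test was possible with 1 library a group. Intervals are exact conditional binomial intervals at 95% for counting error, and folds against a library at 0 use the floor of 3 reads. Pools of 5 give no spread between animals. The 58 lists hold 1255 entries and 1133 distinct genes, of which 1118 were found, 953 passed the filter and 114 of those found stand in more than 1 list. Named genes have a mean of at least 10 ppm, a standard symbol and no antigen receptor or histocompatibility segment. They are the 12 largest and 12 lowest ratios in CD8, the 6 largest and 6 lowest differences from CD4, per list up to 6 of the largest absolute ratio and the 2 most abundant, the 3 most abundant per list of other cells, 8 abundant genes within 1.1-fold, Cd4, Cd8a, Cd8b1, Ahr, Pdcd1 and Gzmb. Further genes are named as members of a list or were chosen after their values were seen.

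Alternatives were 4 other scalings, pseudocounts 0.25 and 4 times as large, no filter or one at 20 ppm, the filter on the CD8 libraries alone, intervals wholly beyond 2-fold, and leaving out genes of other cells. Promoter sequences are from RefSeq on GRCm38.p6, matched by Entrez gene ID for 8000 of the 9933 genes, and no mm9 coordinate was used. The planned search of protein tails was not run, and some genes that the naming rule picks are not reported here. Python 3.11.15, numpy 2.4.6, pandas 2.3.3, SciPy 1.17.1 and matplotlib 3.10.9 were used, and the ratios and intervals were tested on simulated data.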

Additional observations from a re-analysis of the deposited data

Results flagged for a closer look

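The following results were picked out because the CD8 pair and the CD4 pair passed 2-fold in opposite directions. Each pair is 1 library against 1, so the difference was not tested. Values are the CD8 log2 ratio minus the CD4 log2 ratio. Among genes of killer cells and the T cell surface, the difference was 5.58 for Cd244, 4.58 for Gzma and 3.30 for Klrb1c, the NK receptor NK1.1, which went from 69.4 to 175 in CD8 and from 424 to 86.2 in CD4. Ly6c1 differed by 5.49, but its near-identical copy Ly6c2 went the other way, and the sum of Ly6c1 and Ly6c2 had log2 ratios of -0.58 in CD8 and 0.36 in CD4. Zbtb7b differed by 3.46, Adamts14 by 4.83 and Myo10 by 5.19.

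Genes known from macrophages and other antigen-presenting cells formed the next group. The difference was 2.47 for Cd74, 2.99 for Fcer1g, 4.41 for Itgax, 3.73 for Slc40a1 and 4.50 for Vcam1. The macrophage and monocyte list differed by 3.61 in its median and the dendritic cell list by 2.84. The share of such cells in each sort was not measured, and their part in the ratios of other genes was not tested. In the opposite sense, Cd163l1 differed by -4.00 and 5830411N06Rik by -3.61.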

How the results depend on the processing

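No paired analysis was possible because each group holds 1 library, and for the same reason no library could be left out. The counts of genes higher (1490) and lower (1095) in CD8 stayed within 1.5-fold under all alternatives but 1: with a filter at 20 ppm, which tests 7502 genes in place of 9933, the higher genes numbered 886. The scalings moved the median of all genes from 0.02 to between -0.09 (trimmed mean of M-values, 1305 higher and 1320 lower) and 0.11 (equal totals, 1656 and 963). The genes whose CD8 and CD4 log2 ratios differed by at least 1 numbered 600, 1177 with no filter and 269 with a filter at 20 ppm. Of 273 called named genes 265 or more kept their call under each other scaling and pseudocount, and no called gene changed sign. Sign changes were counted only for list medians past 2-fold, and 1 of the 55 list medians changed sign in that way. The chemokine receptors had a median of 1.34, which became -0.76 with a filter at 20 ppm, where 12 of the 18 genes remained. Their median thus depends on which low receptors are kept. Between 0 and 5 list medians crossed the 2-fold line under an alternative, most (5) with no filter and none with the smaller pseudocount. The depth of the later CD8 library, 9873850 estimated reads, limits genes near its floor of 4.23, and differences between animals could not be measured.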

Other observations

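Some gene families outside the comparisons above had few called genes in CD8, where 74.0% of all genes lay within 2-fold. Of 8 Gimap genes, GTPases of lymphocyte survival, 7 lay within 2-fold, a share not far from that of all genes, and Gimap7 went from 1389 to 3609. Of 29 genes of the pentose phosphate pathway and citrate cycle 26 lay within 2-fold (median 0.34), and Idh2, the mitochondrial isocitrate dehydrogenase, was the 1 lower gene, from 755 to 217. Common reference genes were not all level. Of 15 listed, 5 were at least 2-fold higher in CD8, with Gapdh from 7229 to 28795 and Hprt from 1643 to 3705, while Sdha went from 3785 to 3846.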
